A study of Saccharomyces cerevisiae with 16 samples.

Results

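Wild-type budding yeast moved from glucose back to galactose were compared with the same culture series while still in glucose. The comparison sets strain YSB787 at 15 min of its second galactose period against the same strain at 120 min of glucose, and uses 2 of the 16 libraries of the series. YSB787 is labelled wild type with no further allele given, and the other 8 libraries come from YTK113, labelled as lacking HDA1. All cultures grew in synthetic complete medium, first with raffinose and then with galactose for 15, 30 and 120 min. Glucose followed for 30 and 120 min, and galactose was then given again for 15 and 30 min. Libraries whose galactose label carries an added 1 were read as the second galactose period. The labels do not say how glucose was removed, so loss of glucose and gain of galactose cannot be told apart. Each stage has 1 library, so no difference below has a replicate check and none was tested across samples.

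Yeast cells take up and burn glucose before other sugars. While glucose is present, the Mig1 repressor and its partners hold down genes for galactose, sucrose, maltose and respiratory fuels, and the Snf1 kinase lifts that hold when glucose is gone. Galactose itself acts through Gal3, which frees the activator Gal4 from its inhibitor Gal80, so that the permease Gal2 and the enzymes Gal1, Gal7 and Gal10 are made. Loss of glucose also lowers protein kinase A signalling, which lets the stress activators Msn2 and Msn4 work and slows the making of ribosomes.

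Of 6685 nuclear open reading frames (ORFs), 5881 averaged 1 FPKM or more across all 16 libraries and were tested. FPKM counts fragments scaled by gene length and by library depth. Folds are second galactose over glucose after adding 1 to each FPKM, and brackets after them hold 95% exact binomial intervals on fragments that cover counting error only. A fold of 2 or more counted as higher, and one of 0.5 or less as lower. By this rule 849 tested ORFs (14.4%) were higher and 673 (11.4%) were lower. The median log2 ratio of all tested ORFs was 0.07. After that median was subtracted, 775 ORFs (13.2%) were higher and 764 (13.0%) lower, so the higher share of all calls moved from 55.8% to 50.4%.

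Depth was close in the pair, at 9.21 M fragments in second galactose and 11.1 M (2.23 Gb of gene bases) in glucose. A floor of 3 fragments corresponds to 0.289 FPKM in second galactose and 0.242 FPKM in glucose for a gene of 1 kb. Nuclear RNA genes took 11.7% of gene bases in second galactose and 8.98% in glucose, and mitochondrial genes took 0.471% and 0.297%, and the part of these shares in the results was not tested. HDA1 stood at 31.5 FPKM in second galactose and 34.3 FPKM in glucose. Some ORFs are listed at exactly 0 in 1 library while others of the series give them a clear level. Among tested ORFs 80 are listed at 0 in second galactose and 82 in glucose, whatever their level elsewhere. No fold is given for these in the running text, but they stay in the counts, list medians and figures. Tested ORFs marked near 0 despite a clear level in other libraries number 59 in second galactose and 57 in glucose. Another 867 tested ORFs overlap a neighbouring gene and 270 have more than 10% repeated sequence, and their values are less certain. Genes of a-type haploid cells were well expressed, with MFA2 at 2041 and 2529 FPKM and STE2 at 415 and 596 FPKM in second galactose and glucose. The alpha-type genes MF(ALPHA)1, MF(ALPHA)2 and STE3 stayed between 0.432 and 2.48 FPKM in both libraries, whereas SAG1 stood at 35.7 and 41.7 FPKM.

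Gal4 recognises CGG and CCG separated by 11 free bases. The first stretch shown lies between the divergent GAL10 and GAL1 ORFs (chrII:278562-278627, plus strand), and the next before GAL2 (chrXII:289790-289906, plus strand). They carry 3 and 4 matches in the 500 bases before the ORF start, with CGG and CCG in capitals, and 2 of the 4 before GAL2 overlap. Both are given because they hold several matches each and precede galactose genes described below. All sequences are from the RefSeq genome of build R64.
GAL1: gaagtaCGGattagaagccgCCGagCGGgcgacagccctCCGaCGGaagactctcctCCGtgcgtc
GAL2: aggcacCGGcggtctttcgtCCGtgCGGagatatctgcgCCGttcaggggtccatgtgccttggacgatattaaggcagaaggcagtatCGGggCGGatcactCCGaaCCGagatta

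Genes with 1 such match are shown next, each on its own coding strand, because their folds differ widely, as given below. GAL7 is at chrII:275697-275725 (minus strand), GAL3 at chrIV:463140-463168 (plus), GAL80 at chrXIII:171416-171444 (plus), GCY1 at chrXV:550739-550767 (plus) and PCL10 at chrVII:255425-255453 (plus).
GAL7: agcgctCGGacaactgttgaCCGtgatcc
GAL3: cacgttCGGtccactgtgtgCCGaacatg
GAL80: atttacCGGcgcactctcgcCCGaacgac
GCY1: aacaatCGGggcagactattCCGgggaag
PCL10: gaagctCGGagtatattgcaCCGatccga

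All 5 genes for galactose uptake and breakdown were higher in second galactose, with a list median of 5.18 log2. GAL2, the permease gene (YLR081W, chromosome XII 290212 to 291936), had 744 FPKM in second galactose, against 8.29 FPKM in glucose. That is 80.2-fold (70.3 to 92.0), the highest of the ORFs ranked by the naming rule. GAL7, for the uridylyltransferase (YBR018C, II 274427 to 275527), had 802 FPKM, against 19.0 FPKM in glucose, or 40.1-fold (35.6 to 45.2). PGM2, for phosphoglucomutase, which links the pathway to glycolysis (YMR105C, XIII 475897 to 477606), had 1694 FPKM, against 45.8 FPKM in glucose, or 36.2-fold (34.0 to 38.6). PGM2 has no Gal4 match in its window but 5 matches to the stress element described further on.

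GAL1 and GAL10, which share the stretch shown first, differed less between the stages. GAL1, for galactokinase (YBR020W, II 279021 to 280607), had 524 FPKM in second galactose, against 46.6 FPKM in glucose, or 11.04-fold (10.3 to 11.8). GAL10, for the epimerase (YBR019C, II 276253 to 278352), had 475 FPKM, against 36.0 FPKM in glucose, or 12.9-fold (12.1 to 13.8). Both stood higher in glucose than GAL2 and GAL7 did, while in second galactose the 4 genes lay within 475 to 802 FPKM. Before any galactose, in raffinose, GAL1 and GAL10 had 2.98 and 1.43 FPKM. Thus the glucose library that serves as the baseline still held more GAL1 and GAL10 message than raffinose did.

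Regulators of the pathway spanned a narrower range. GAL3, for the galactose sensor (YDR009W, IV 463434 to 464996), had 30.7 FPKM in second galactose and 4.58 FPKM in glucose, or 5.67-fold (4.66 to 6.89). GAL4, for the activator (YPL248C, XVI 79711 to 82356), had 15.9 FPKM and 4.97 FPKM in glucose, or 2.83-fold (2.42 to 3.33). GAL80, for the inhibitor (YML051W, XIII 171594 to 172901), had 107 FPKM and 75.4 FPKM in glucose, or 1.42-fold (1.31 to 1.53), below the rule. GCY1, for an aldo-keto reductase and known as a Gal4 target, stood at 11.2-fold (10.3 to 12.2), although it overlaps another gene. Of the 7 regulators and other Gal4 targets 4 were higher and none lower. PCL10, a cyclin gene with a match shown above, was at 1.78-fold, and FUR4, for uracil uptake, at 0.54-fold (10.2 FPKM in second galactose and 19.9 FPKM in glucose).

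Across the wild-type stages the galactose genes followed different courses before this shift. GAL1 had 2.98 FPKM in raffinose, then 4.15, 10.7 and 45.2 FPKM at 15, 30 and 120 min of the first galactose. It stood at 225 FPKM after 30 min of glucose and 46.6 FPKM after 120 min, then 524 and 1347 FPKM in second galactose. Galactose given first for 15 min therefore left GAL1 near its raffinose level (1.29-fold), and the second time it stood far above the preceding glucose level. GAL7 had 16.4 FPKM after 15 min of first galactose, 191.6 FPKM after 120 min, 431 FPKM after 30 min of glucose and 19.0 FPKM after 120 min. PGM2 was already at 162 FPKM in raffinose and 321 FPKM at 15 min of first galactose. Summed over the 5 genes, the pathway took 0.608% of ORF FPKM in second galactose at 15 min, 0.0210% in glucose at 120 min and 0.0493% at 15 min of first galactose.

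**Figure D1:**
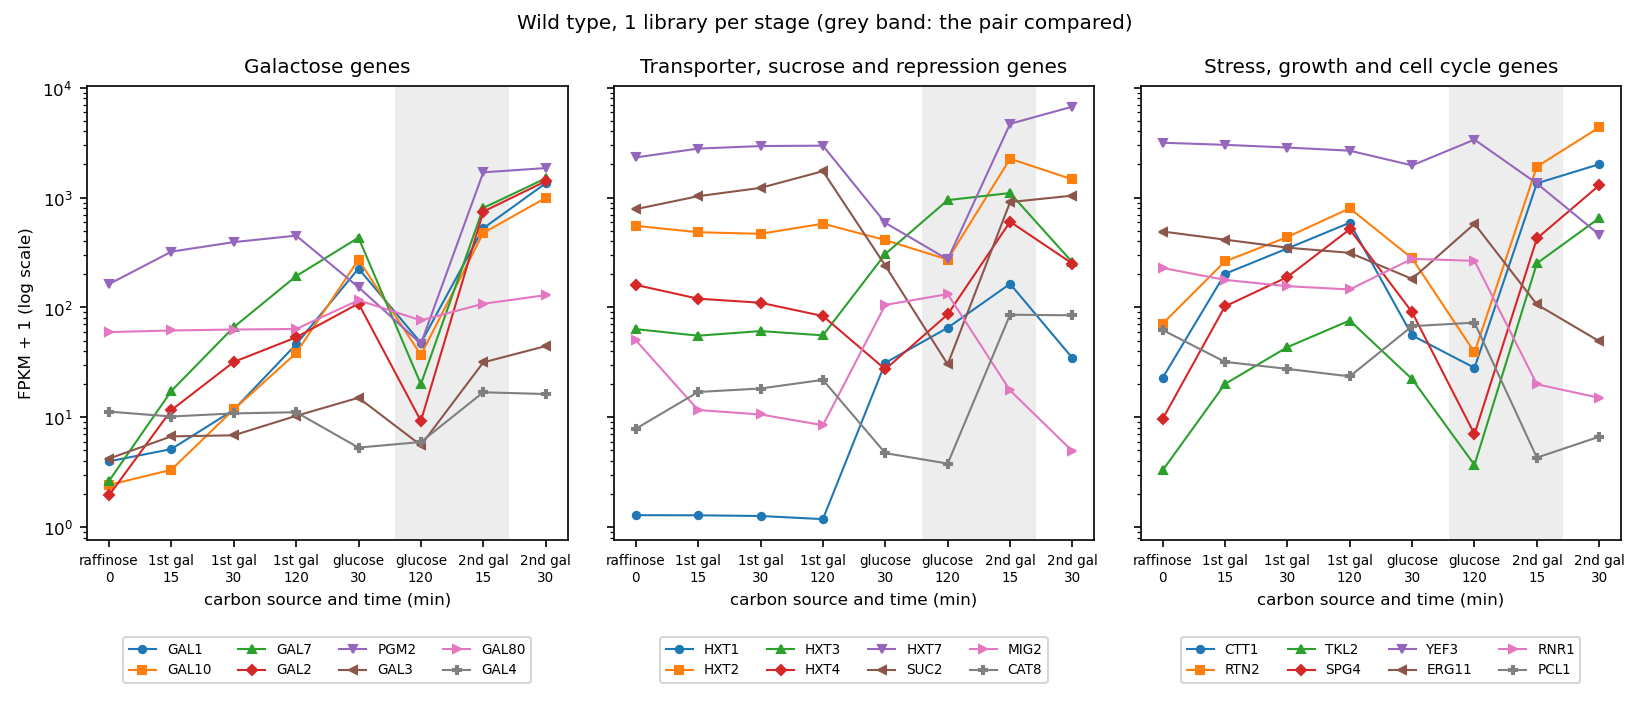
Levels (FPKM + 1, log axis) of named genes at the 8 wild-type stages in order of time, 1 library per point, in panels for galactose genes, for transporter, sucrose and repression genes, and for stress, growth and cell cycle genes. The grey band marks the pair compared: GAL2 (744 FPKM at 15 min of second galactose and 8.29 FPKM in glucose) and CTT1 (1347 and 27.2 FPKM) step up across it, and MIG2 (16.6 and 131 FPKM) and PCL1 (3.30 and 71.8 FPKM) step down.

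Most tested hexose transporter genes were higher, both on the list named glucose-repressed and on the list named glucose-induced. Among repressed transporters 4 of 5 tested were higher and none lower, with a median of 3.98 log2, or 1.87 over the 3 members without overlapping, repeated or near-0 ORFs. HXT7, for a high-affinity transporter (YDR342C), had 4681 FPKM in second galactose and 273 FPKM in glucose, or 17.1-fold (16.6 to 17.6), and HXT6 was close to it, but 94.9% of each is repeated sequence, so reads of the pair cannot be kept apart. HXT5, a transporter gene of slowly growing cells, had 42.3 FPKM, against 1.74 FPKM in glucose, or 15.8-fold (12.7 to 19.7). Of those 3 members 2 were higher, HXT5 and HXT13, and HXT13 stood at 3.68 FPKM in second galactose and 0.279 FPKM in glucose.

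On the list named glucose-induced none was lower at 15 min, and 3 of 4 were higher. That list does not separate genes induced by low glucose from those induced by high glucose. HXT2 had 2253 FPKM in second galactose and 272 FPKM in glucose, or 8.26-fold (8.03 to 8.50), and HXT4 was at 6.96-fold (6.63 to 7.32). HXT1, for a low-affinity transporter, had 163 FPKM and 64.4 FPKM in glucose, or 2.51-fold (2.36 to 2.68). HXT3, another low-affinity transporter gene, was nearly level at 1098 FPKM in second galactose and 946 FPKM in glucose, or 1.16-fold (1.14 to 1.18). At 30 min of second galactose the levels were lower than at 15 min, at 33.6 FPKM for HXT1 and 255.9 FPKM for HXT3. HXT1 and HXT3 then lay below their glucose level, whereas the 4 genes together had 1999 FPKM, against 1368 FPKM in glucose. For each of these 4 genes the 15 min value was the highest of the 8 wild-type stages.

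Of 8 genes of glucose sensing 2 were higher, 1 was lower and 5 stayed within 2-fold, and the lower share is close to the 11.4% of all ORFs. MIG2, a repressor gene itself induced by glucose (YGL209W, VII 95858 to 97006), had 16.6 FPKM in second galactose and 131 FPKM in glucose, or 0.133-fold (0.115 to 0.153). MIG1, for the main repressor (YGL035C), had 64 and 29.0 FPKM, or 2.17-fold (1.96 to 2.40). STD1 and MTH1 encode related proteins of transporter control, and STD1 stood at 0.306-fold (18.8 and 63.6 FPKM) while MTH1 stood at 2.80-fold (182 and 64.2 FPKM). SNF3, for the sensor of low glucose, was at 4.38-fold and RGT2, for the sensor of high glucose, at 0.81-fold. CAT8, an activator of gluconeogenesis, had 84.9 FPKM, against 2.80 FPKM in glucose, or 22.6-fold (19.99 to 25.6), and ADR1, an activator of ethanol and fatty acid use, was at 6.12-fold (5.79 to 6.47). SNF1 itself stayed below the rule at 1.48-fold. Of 17 genes of Snf1, repressors and activators, 7 were higher and 2, MIG2 and NRG2, lower. The lower share of that list is close to the 11.4% of all ORFs, and its higher share lies above their 14.4%.

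Genes for the use of other carbon sources were higher in part. All 8 tested sucrose and maltose genes passed, led by SUC2, for invertase (YIL162W, IX 37385 to 38983), at 908 FPKM in second galactose and 29.4 FPKM in glucose, or 29.9-fold (27.6 to 32.5). Without overlapping, repeated or near-0 members 5 of that list were left, and all 5 were higher. Lactate, acetate, ethanol and glycerol genes gave 9 of 12 higher with a median of 2.77 log2. JEN1, for the lactate permease, was at 28.8-fold (24.6 to 33.9) and CYB2, for lactate dehydrogenase, at 26.5-fold (21.7 to 32.2). ADH2, for the alcohol dehydrogenase of ethanol use, was level at 73.3 FPKM in each library, and had 285 FPKM at 30 min of second galactose. Gluconeogenesis and glyoxylate genes gave 5 of 10 higher, with ACS1, for acetyl-CoA synthetase, at 9.21-fold (7.90 to 10.7). FBP1, for fructose bisphosphatase, stood at 3.39 FPKM in second galactose and 1.75 FPKM in glucose, so this gluconeogenic gene was low in both. Fatty acid oxidation gave 14 of 21 higher, with POT1, for thiolase, at 12.04-fold (9.48 to 15.2).

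Respiratory genes formed a broad block of smaller changes. Of 23 nuclear respiratory chain genes 19 were higher and none lower, with a median of 1.57 log2, and 10 of 17 ATP synthase genes were higher with a median of 1.09. Within the block CYC7, for the minor form of cytochrome c (YEL039C, V 79636 to 79977), stood out at 306 FPKM in second galactose and 5.47 FPKM in glucose, or 47.3-fold (33.4 to 69.5). CYC1, for the major form, was at 91.8 and 79.8 FPKM, or 1.15-fold (0.982 to 1.34). In the tricarboxylic acid cycle 10 of 17 genes were higher, among them SDH1, for succinate dehydrogenase, at 7.18-fold (6.67 to 7.73). HAP4, for the activator of respiratory genes, stood at 2.47-fold.

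Most glycolytic genes stayed within 2-fold. Of 21 glycolytic and fermentation genes 5 were higher and none lower, and the list median was −0.26. HXK1, for hexokinase 1, had 3893 FPKM in second galactose and 305 FPKM in glucose, or 12.7-fold (12.4 to 13.1), whereas HXK2, for hexokinase 2, had 873 and 624.5 FPKM, or 1.40-fold. HXK1 thus made up 81.7% of the summed FPKM of the pair in second galactose and 32.8% in glucose. ENO1 and ENO2, for enolase, had 2124 and 3306 FPKM in second galactose, against 830.1 and 6579 FPKM in glucose. GLK1, for glucokinase, was at 6.61-fold (6.43 to 6.80), and like HXK1 it overlaps another gene. TDH1 and PYK2, for minor forms of glyceraldehyde phosphate dehydrogenase and pyruvate kinase, were at 2.60-fold and 3.46-fold, whereas TDH3 and CDC19, for the main forms, were at 0.75-fold and 0.87-fold.

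In the pentose phosphate pathway 5 of 11 genes were higher and 2 lower, against 14.4% and 11.4% of all ORFs, with a median of −0.24 log2. Without overlapping, repeated or near-0 members, 4 of 8 were higher and 1 lower, with a median of 0.53. In each of 4 pairs of related genes 1 was higher and its partner was not. TKL2 and TKL1, both for transketolase, had 251 and 299 FPKM in second galactose, against 2.70 and 666 FPKM in glucose, so that TKL2 made up 45.6% of the pair in second galactose and 0.403% in glucose. TKL2 was at 68.2-fold (57.2 to 81.9) and overlaps another gene. SOL4, for a phosphogluconolactonase, was at 16.9-fold (14.6 to 19.6) while SOL3 was at 0.63-fold. NQM1, a transaldolase gene, was at 24.5-fold (21.3 to 28.4) while TAL1 was at 0.85-fold, and GND2 was at 8.83-fold while GND1 was at 0.384-fold. GND1 also overlaps another gene. At 30 min of second galactose the first gene of each pair held more of its pair still, 84.0% for TKL2 and 90.7% for SOL4. The pairs were chosen after their values were seen.

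**Figure D2:**
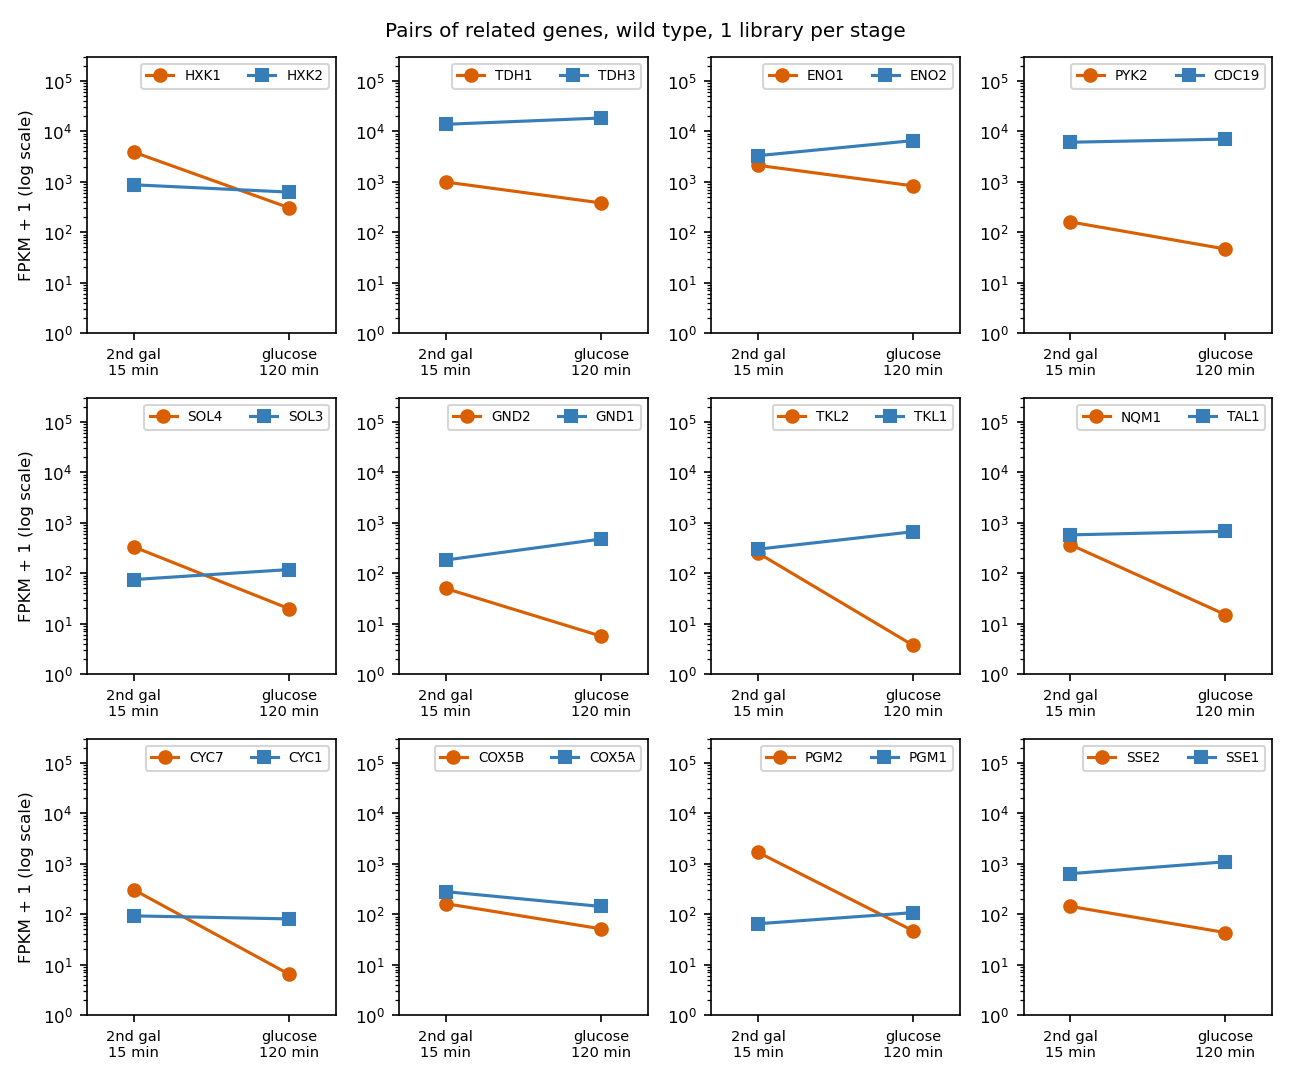
Levels (FPKM + 1, log axis) of 12 pairs of related genes at 15 min of second galactose (left in each panel) and 120 min of glucose (right), wild type, 1 library per stage. Orange circles show the first gene of a pair and blue squares the other: HXK1, SOL4, CYC7 and PGM2 lie above their partners in second galactose and below them in glucose.

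Storage sugar genes were nearly all higher. All 7 trehalose genes passed the rule with a median of 1.98 log2, both those that make the sugar and those that break it down. TSL1, for a synthase subunit, was at 15.2-fold (14.6 to 15.8) and TPS2, for the phosphatase, at 8.55-fold (8.29 to 8.81), while the trehalase genes NTH1 and ATH1 were at 3.12-fold and 6.54-fold. Glycogen gave 12 of 13 higher with a median of 2.76, led by GIP2, a phosphatase regulator gene, at 18.9-fold (16.02 to 22.3). GSY1, for glycogen synthase, had 609 FPKM in second galactose and 34.5 FPKM in glucose, or 17.2-fold (16.1 to 18.4), and GLC3, for the branching enzyme, was at 17.0-fold (16.1 to 17.9). PGM1, for the other phosphoglucomutase, was the tested member not called, at 63.8 FPKM and 106.6 FPKM in glucose. GPH1, also on the list, averaged below 1 FPKM and was not tested.

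General stress genes of the kind driven by Msn2 and Msn4 gave 23 of 25 higher and none lower, with a median of 3.01 log2. CTT1, for cytosolic catalase (YGR088W, VII 654634 to 656322), had 1347 FPKM in second galactose and 27.2 FPKM in glucose, or 47.8-fold (44.1 to 51.9). RTN2, for a reticulon (YDL204W, IV 94605 to 95786), had 1910 and 38.1 FPKM, or 48.9-fold (45.1 to 53.2). ALD3, for an aldehyde dehydrogenase, was at 71.2-fold (64.1 to 79.4), with 22.3% of its sequence repeated. SIP18 had 114 FPKM in second galactose and is listed at 0 in glucose. As a group these genes took 3.32% of ORF FPKM in second galactose, 0.555% in glucose and 6.70% at 30 min of second galactose. Not every stress gene joined, since YGP1 was at 0.96-fold and MSN4, for the activator itself, at 1.37-fold.

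Heat shock chaperone genes did not follow the stress list. Of 24 members 5 were higher and 4 lower, with a median of −0.03 log2. Among all ORFs 14.4% were higher and 11.4% lower, so neither share of this list lies far above those. Without overlapping, repeated or near-0 members, 5 of 21 were higher and 3 lower. HSP42 and HSP104, for a small heat shock protein and a disaggregase, were at 4.57-fold (4.35 to 4.795) and 3.69-fold (3.59 to 3.79). SSA2, for a constitutive Hsp70 (566 and 1755 FPKM), and YDJ1, for its partner (85.6 and 282 FPKM), were at 0.32-fold and 0.31-fold, and 45.8% of SSA2 is repeated sequence. SSE2 and SSE1 encode related Hsp110 proteins, and SSE2 was at 3.31-fold while SSE1 had 637 FPKM in second galactose and 1096 FPKM in glucose.

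Genes named for stationary phase or respiratory growth gave 6 of 9 higher and none lower, with SPG5, SNZ1 and SNO1 within 2-fold. The 10 highest ORFs by the naming rule were GAL2, RGI2, YNL194C, YNL195C, SPG4, SPG1, FMP45, FMP16, RTN2 and CTT1. RGI2, named for respiratory growth (YIL057C, IX 247902 to 248396), had 123 FPKM in second galactose and 0.627 FPKM in glucose, and its fold of 76.0 (46.0 to 105.5) rests on 4 fragments in glucose. SPG4 (YMR107W, XIII 483014 to 483361) and SPG1 (YGR236C, VII 962530 to 962817), both needed late in stationary phase, were at 60.2-fold (43.0 to 86.3) and 54.7-fold (30.1 to 88.3). YNL194C and YNL195C are neighbours on chromosome XIV (271523 to 273615), with 402.5 and 286 FPKM in second galactose, against 4.43 and 2.97 FPKM in glucose. YNL194C and FMP45 (54.0-fold, 43.8 to 67.3) encode relatives of the membrane protein Sur7. Autophagy genes gave 13 of 16 higher, with ATG8 at 5.23-fold (4.34 to 6.32), and 10 of 16 after centring.

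Stretches with the stress element, AGGGG on either strand, are shown for 2 of these genes, CTT1 at chrVII:654246-654285 (plus strand) and YNL194C at chrXIV:273936-274004 (minus strand), with AGGGG in capitals. They are shown as examples with several matches, and 4 of the 10 highest ORFs, YNL195C, SPG4, SPG1 and RGI2, have none in their 500 bases.
CTT1: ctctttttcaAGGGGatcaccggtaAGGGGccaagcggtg
YNL194C: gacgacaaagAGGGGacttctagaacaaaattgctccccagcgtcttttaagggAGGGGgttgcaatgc

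**Figure D3:**
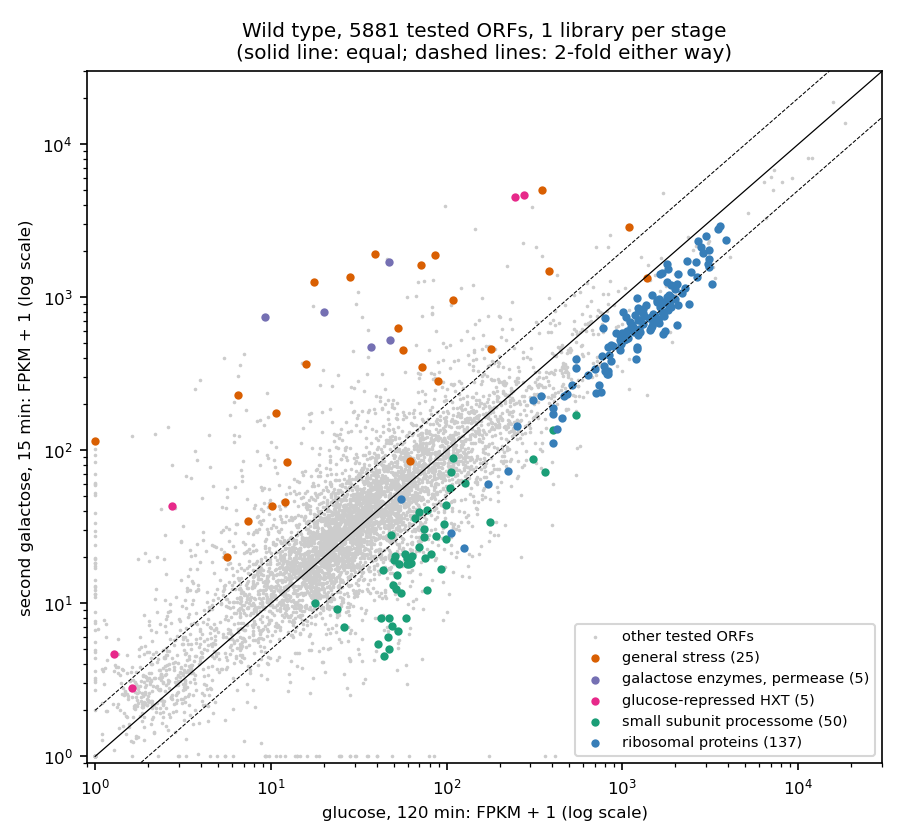
FPKM + 1 of the 5881 tested ORFs at 15 min of second galactose (vertical log axis) against 120 min of glucose (horizontal log axis), wild type, 1 library per stage, with a solid line at equality and dashed lines at 2-fold. General stress genes, galactose genes and glucose-repressed transporters lie above the lines with few exceptions, and the small subunit processome (42 of 50 lower) and many ribosomal protein genes (53 of 137 lower) lie below.

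By the 2-fold rule most messages for ribosome assembly, and a smaller share of those for ribosomal proteins, were lower. Genes that assemble the ribosome lay further below their glucose level than the genes of its proteins. Of 50 genes of the small subunit processome 42 were lower and none higher, and of 61 genes of 60S assembly 48 were lower and none higher, and both lists had a median of −1.70 log2. UTP18, a processome gene (YJL069C, X 310922 to 312706), had 3.51 FPKM in second galactose and 43.2 FPKM in glucose, or 0.102-fold (0.0831 to 0.125). MAK16, for a 60S assembly factor (YAL025C, I 100225 to 101145), had 4.10 and 51.7 FPKM, or 0.097-fold (0.0730 to 0.126). Genes of RNA polymerases I and III gave 15 of 20 lower with a median of −1.44, with RPA12, for a polymerase I subunit (YJR063W, X 555195 to 555572), at 6.81 FPKM in second galactose and 94.3 FPKM in glucose.

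Ribosomal protein genes gave 53 of 137 lower and none higher, with a median of −0.93 log2. All 137 had a log2 ratio below 0, the highest at −0.12, so members not called lower also lay below their glucose level. The median lies near the −1 of the rule, so the count moved with the scale, to 68 lower after centring and 40 when libraries were scaled to the same ORF sum, and leaving out overlapping, repeated and near-0 members gave 42 of 105. Together they took 15.9% of ORF FPKM in second galactose, 26.3% in glucose and 7.84% at 30 min of second galactose. FPKM is relative, so less of these transcripts and more of others cannot be told apart, nor can a change in fewer cells from less of the RNA in each cell. RPL41A and RPL15B, for proteins of the large subunit, stayed near their glucose level at 0.91-fold and 0.88-fold. RPS28B, for a small subunit protein, was lowest of the list at 22.1 FPKM in second galactose and 124 FPKM in glucose.

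Other parts of translation followed. Translation factors gave 14 of 37 lower and none higher, and 20 after centring. YEF3, for elongation factor 3 (YLR249W, XII 636780 to 639914), had 1341 FPKM in second galactose and 3364 FPKM in glucose, or 0.399-fold (0.394 to 0.403). TEF1, for elongation factor 1A, stood at 5700.0 and 8042 FPKM, but 86.5% of it is repeated sequence. Cytoplasmic tRNA synthetases gave 6 of 17 lower, and KRS1, for the lysine enzyme, was at 0.37-fold. Mitochondrial ribosomal proteins, in contrast, gave 5 of 70 higher and none lower, a share below the 14.4% of all ORFs, and 2 after centring. Their median was 0.41 log2, against 0.07 for all tested ORFs, with 64 members above 0 and 5 below. PMA1, for the plasma membrane proton pump, had 1570.0 FPKM in second galactose and 3265 FPKM in glucose, or 0.481-fold (0.476 to 0.486).

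The PAC letters GATGAG and the RRPE core GAAAATTT are known from promoters of ribosome assembly genes. They are shown in capitals before MAK16 (chrI:101258-101284, minus strand), where the RRPE core reads on the opposite strand, and before UTP18 (chrX:312765-312787, minus strand), where a pair of overlapping PAC matches does.
MAK16: tttgaaAAATTTTCcGATGAGcttttg
UTP18: tttcacCTCATCTCATCgatcac

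Genes for building blocks were lower in part. Amino acid synthesis gave 14 of 44 lower and 1 higher, with ILV5, for a step of branched-chain synthesis, at 229 FPKM in second galactose and 1378 FPKM in glucose, or 0.167-fold (0.161 to 0.174). The member that was higher, CPA1, for carbamoyl phosphate synthase, was at 4.79-fold (4.53 to 5.07). ILV6 is listed at 0 in second galactose and has 29.4 FPKM in glucose. Ergosterol synthesis gave 7 of 26 lower, with ERG11 at 106 FPKM in second galactose and 576 FPKM in glucose, or 0.185-fold (0.175 to 0.194). Purine synthesis gave 4 of 14 lower, and sulfate and methionine genes 7 of 22 lower. Among amino acid permeases DIP5 (4.65-fold) and PUT4 (4.62-fold) were higher, 2 of 15, a share close to the 14.4% of all ORFs, and none was lower.

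Genes of the start of the cell cycle were lower. Of 16 G1/S cyclins and targets 12 were lower, and the single member called higher, CDC9, is listed at 0 in glucose. PCL1, for a cyclin (YNL289W, XIV 87897 to 88736), had 3.30 FPKM in second galactose and 71.8 FPKM in glucose, or 0.059-fold (0.0439 to 0.0801). RNR1, for ribonucleotide reductase (YER070W, V 298950 to 301616), had 19.0 FPKM and 265 FPKM in glucose, or 0.075-fold (0.0692 to 0.0820). CLN3, for the cyclin that acts first, was at 0.85-fold, and SWI4, for the activator of this set, at 1.16-fold. G2/M genes gave 4 of 11 lower, 2 of which, CDC5 and HST3, are listed at 0 in second galactose. Among genes of daughter-cell separation 3 of 11 were higher, DSE1, DSE3 and SIC1, at 2.06- to 2.47-fold, and 2 after centring. Of all ORFs 14.4% were higher, and 13.2% after centring, so the centred share of this short list is not far from theirs.

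The 10 lowest ORFs by the naming rule were PCL1, YJL068C, CTR2, RNR1, UTR2, RPA12, HLR1, HO, AIR1 and MAK16. UTR2, for a cell wall chitin enzyme (YEL040W, V 78053 to 79456), had 31.4 FPKM in second galactose and 399 FPKM in glucose, or 0.081-fold (0.0736 to 0.0886). It is the convergent neighbour of CYC7, which was among the most increased. HO, for the mating type endonuclease, had 2.02 and 32.2 FPKM, and AIR1, for a subunit of an RNA surveillance complex, had 2.18 and 33.4 FPKM. YJL068C and CTR2 were unsteady over the series. YJL068C had between 0.494 and 66.6 FPKM over the 8 wild-type stages, and CTR2, for a vacuolar copper transporter, is listed at 0 in raffinose and had 66.1 FPKM at 30 min of second galactose. The other 8 of the 10 were also low at 30 min of second galactose, at 1.298 to 14.1 FPKM.

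Several lists held no calls, and some short lists held calls at shares close to or above those of all ORFs. None of 32 proteasome genes, 10 histone genes, 4 alpha-type genes and 5 genes of the Hda1 complex and the Tup1 corepressor was called. Proteasome genes lay close together, with a median of 0.29 log2. Phosphate genes gave 2 of 13 higher, a share close to the 14.4% of all ORFs, and none after centring. Iron genes gave 3 higher, 1 after centring, and 3 lower of 15. Before centring both iron shares lay above those of all ORFs, 14.4% higher and 11.4% lower. FTR1, for iron permease, was lowest of the iron list at 27.1 FPKM in second galactose and 194.9 FPKM in glucose. Meiosis genes gave 1 higher, IME2, at 8.84 FPKM in second galactose and 2.56 FPKM in glucose, and 1 lower of 8, shares close to those of all ORFs.

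**Figure D4:**
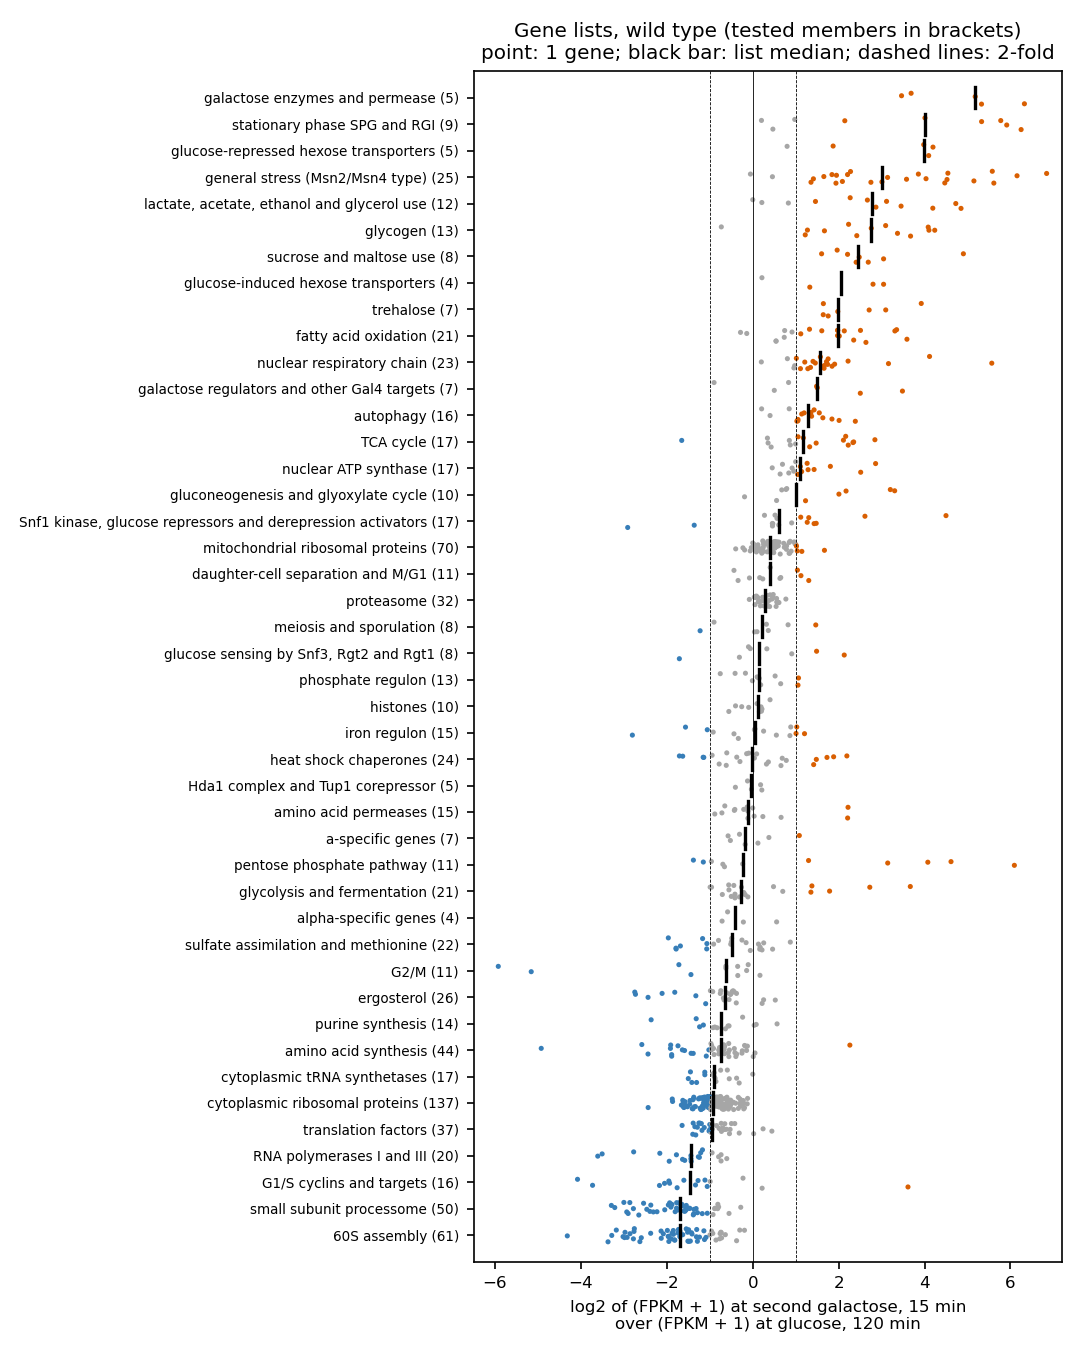
Log2 ratio of FPKM + 1 at 15 min of second galactose over 120 min of glucose for each tested member (points) of 44 gene lists in wild type, 1 library per stage, ordered by list median (black bars), with members at least 2-fold higher in orange, at least 2-fold lower in blue and others in grey. Medians run from 5.18 for galactose enzymes and permease to −1.70 for ribosome assembly, and the far points in the G2/M list and the point at 3.61 in the G1/S list are genes listed at 0 in 1 library, as is the highest general stress point (SIP18).

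Size differed between the directions. Leaving out ORFs marked near 0 in some library, 116 ORFs were at least 8-fold higher and 30 at least 8-fold lower, and at 16-fold the counts were 54 and 1. With those ORFs left in, the counts at 16-fold were 75 and 23. The 816 higher ORFs not marked near 0 held 23.6% of ORF FPKM in second galactose and 4.47% in glucose, with a median level of 60.5 and 17.2 FPKM. The 634 lower ORFs held 8.26% in second galactose and 20.2% in glucose. These shares describe the choice itself, since both libraries were used for it. In libraries not used for it, the higher ORFs held 6.74% in raffinose, 8.67% at 15 min and 12.4% at 120 min of first galactose, 9.04% at 30 min of glucose and 34.8% at 30 min of second galactose. The lower ORFs held 3.87% at 30 min of second galactose and at least 14.0% at each stage before second galactose.

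The first galactose period, which followed raffinose, gave a far smaller response at the same time. At 15 min of first galactose over raffinose, 140 ORFs (2.38%) were higher and 49 (0.833%) lower. Of the 849 higher ORFs of second galactose 86 were also higher there, 10.1% of the 849 and 61.4% of the 140. General stress genes had 0.799% of ORF FPKM at 15 min of first galactose and 0.554% in raffinose, and ribosomal protein genes had 22.9% and 24.2%. CTT1 was at 8.87-fold in that comparison, ALD3 at 11.4-fold and GAL7 at 6.60-fold, and SUC2 was already high at 1027 FPKM at 15 min of first galactose and 783 FPKM in raffinose. Across ORFs not marked near 0 the log2 ratios of the 2 comparisons, which share no library, had r = 0.52 (n = 5723 ORFs, which are not independent replicates).

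The opposite change of sugar, 30 min of glucose over 120 min of first galactose, partly mirrored the shift. There 592 ORFs (10.1%) were higher and 237 (4.03%) lower. Of those 237 lower ORFs 150 (63.3%) were higher in second galactose, which is 17.7% of the 849. Of those 592 higher ORFs 177 (29.9%) were lower in second galactose, which is 26.3% of the 673. SUC2 was at 0.138-fold in glucose at 30 min and MIG2 at 12.4-fold, whereas GAL1 and GAL10 were higher, not lower, at 4.90-fold and 7.08-fold. Across ORFs not marked near 0 the correlation was r = −0.45 (n = 5723 ORFs).

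The same shift in the HDA1 mutant shared many of its calls with wild type but not all. There 755 ORFs (12.8%) were higher and 1027 (17.5%) lower. Of these, 627 higher ORFs were shared, 73.9% of the wild-type set and 83.0% of the mutant set, and 605 lower ORFs were shared, 89.9% and 58.9%. Another 10 ORFs were higher in wild type and lower in the mutant, and 17 were the opposite. These counts are over all tested ORFs and include some listed at 0 in a library. Among the 17 are HST3, ILV6 and CTR2, each listed at 0 in the mutant glucose library. GAL2 had 1650.0 FPKM in the mutant in second galactose and 11.8 FPKM in glucose, and GAL1 had 1314 FPKM and 65.8 FPKM. HXT1 was at 1.31-fold in the mutant, HXT3 at 0.70-fold and GAL4 at 1.88-fold, each below the rule. The difference between genotypes was not tested, as each has 1 library. Over ORFs not marked near 0 the correlation was r = 0.90 (n = 5723 ORFs), and over all tested ORFs it was r = 0.76 (n = 5881 ORFs).

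Promoter letters differed between the called sets. In the 500 bases before the ORF start, both strands, AGGGG was found for 60.3% of higher ORFs, 21.8% of lower ORFs and 34.4% of all tested ORFs. GATGAG was found for 19.6% of higher and 50.7% of lower ORFs, against 28.3% of all, and GAAAATTT for 8.13% and 24.8%, against 11.9%. The Mig1 core GGGGTA, which can overlap AGGGG by its G bases, was found for 17.6% of higher and 5.65% of lower ORFs, against 8.47% of all. Gal4 matches were rare, at 4.48% of higher, 2.23% of lower and 2.99% of all tested ORFs. Of 176 tested ORFs with a Gal4 match 38 (21.6%) were higher and 15 (8.52%) lower. A match is a string of letters and not a shown binding site.

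**Figure D5:**
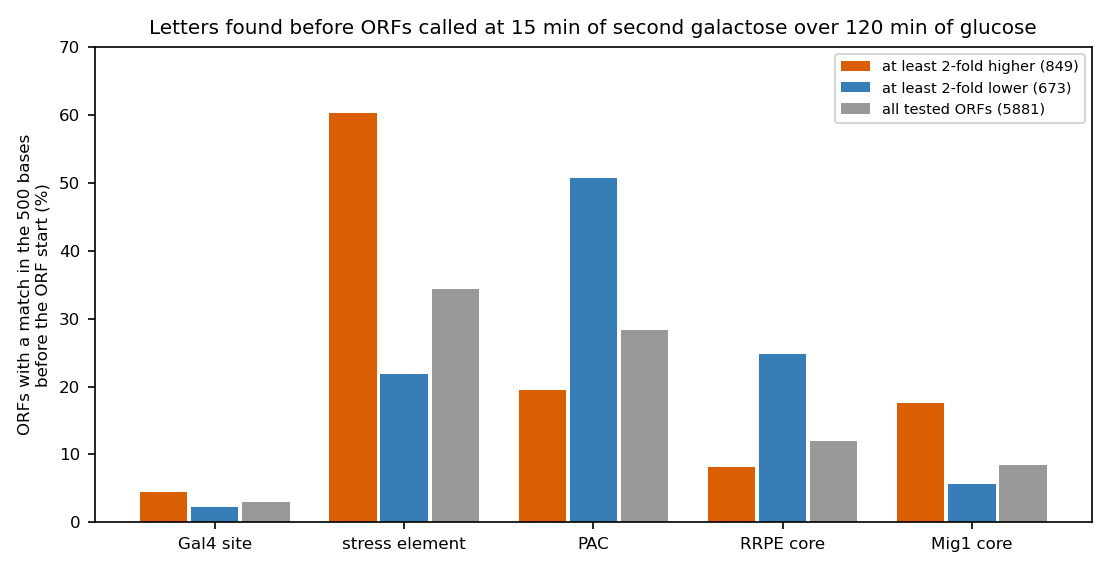
Percent of ORFs whose 500 bases before the ORF start hold a match on either strand, for ORFs at least 2-fold higher (orange, 849), at least 2-fold lower (blue, 673) and all tested (grey, 5881) at 15 min of second galactose over 120 min of glucose in wild type. The stress element stands at 60.3% of higher ORFs and 21.8% of lower ORFs, and PAC at 19.6% and 50.7%.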

How the data were processed

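The input was the transcript tables of 16 libraries, as the authors deposited them. Per the labels and file headers, the authors made directional mRNA libraries from hot-phenol RNA, aligned reads with HISAT2 2.0.4 and quantified them with StringTie 1.3.0 on the R64 build and Ensembl release 86. FastQC 0.11.5, SAMtools and bedtools 2.26.0 are also listed. The deposited values are coverage, FPKM and TPM. Deposited FPKM was used, and coverage times length over 202 bases gave fragments, taken as pairs of 101-base reads. The quantification command in the header shows no strand option, so overlapping genes may share reads. Of 6685 ORFs, 6006 have the same ID in RefSeq, and 5994 of these 6006 have identical coordinates there, while the rest of the 6685 were not compared. ORFs below a mean of 1 FPKM (804), 386 nuclear RNA genes and 55 mitochondrial genes were left out of the test. List members among the 804 include GPH1, GRS1, RPT1 and PHO84, and why they fell below the minimum was not tested. The near-0 mark was given to 158 tested ORFs that fell under 3 fragments in some library but had a median of at least 10 FPKM in the rest.

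Genes were named by rule: 21 fixed names, the 10 ORFs with the highest and the 10 with the lowest ratio among those averaging 10 FPKM or more with no overlap, near-0 value or over 10% repeat, and up to 3 highest and 3 lowest members of each of 44 lists. HXK2, TDH1, TDH3, CDC19, TAL1, SOL3, GND2, ENO1, SSE1, SNF1 and HAP4 lie outside it, and their choice followed sight of the values. Some genes that the rule names are not reported here. Members and lists were chosen with earlier results of these data known. Alternatives were pseudocounts of 0.1 and 5, centring, TPM, no expression minimum, a 3-fold threshold, a counting interval that excludes 1, and removal of overlapping, repeated or near-0 ORFs. Scaling to the ORF sum was chosen after seeing the data. Calculations ran in Python 3.11.15 with pandas 2.3.3, NumPy 2.4.6 and SciPy 1.17.1, and plots were drawn with matplotlib 3.10.9.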

Additional observations from a re-analysis of the deposited data

Results flagged for a closer look

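CTR2, for a vacuolar copper transporter (chromosome VIII, 452872 to 453441), went opposite ways in the 2 genotypes. Its log2 ratio was −3.83 in wild type, with 2.67 FPKM in second galactose and 50.9 FPKM in glucose, whereas the HDA1 mutant had 63.95 FPKM in second galactose and is listed at 0 in glucose. The difference was not tested, since each genotype has 1 library. Over the 16 libraries CTR2 is listed at 0 in 3 and reaches 66.1 FPKM in wild type at 30 min of second galactose.

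SNR190, a small nucleolar RNA gene outside the ORFs tested (chromosome X, 139761 to 139950), had 11100 FPKM in second galactose and 55.4 FPKM in glucose, a log2 ratio of 7.62. In the other 14 libraries it lay between 1554 and 13060 FPKM, so the wild-type glucose library is the lowest of the 16. Its neighbour SNR128 had 992 FPKM in second galactose and 975.2 FPKM in glucose. SNR128 was not steady over the series either, from 104.4 FPKM in wild type at 120 min of first galactose to 2868 FPKM in the mutant in raffinose.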

How the results depend on the processing

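The counts of 849 higher and 673 lower ORFs stayed within 1.5 times under every setting but the 3-fold threshold, which gave 439 and 291 because it asks for more. Higher counts under the others ran from 646 (pseudocount 5) to 944 (pseudocount 0.1) and lower counts from 555 (pseudocount 5) to 764 (centred). The higher share of calls, 55.8%, ran from 50.4% (centred) to 61.0% (ORF sum, 937 higher and 600 lower). The median of all tested ORFs was 0.16 log2 when scaled to the ORF sum. Calls near 2-fold moved most: ribosomal proteins had 53 lower as reported, 68 after centring, 40 when scaled to the ORF sum, a setting chosen after seeing the data, and 8 at 3-fold. Leaving out each replicate could not be run, as each stage has 1 library. No paired analysis was possible because the libraries carry no replicate numbers and each group holds 1 sample. Intervals and floors cover counting error only, and spread between cultures is unknown here.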

Other observations

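Beyond the galactose genes, several ORFs with 1 match to the Gal4 letters in their 500 bases were among the clearly higher ones. ISF1, which has been tied to mitochondrial function, had 742 FPKM in second galactose and 31.9 FPKM in glucose, or 22.6-fold. Its relative MBR1 had 88.7 FPKM and 8.64 FPKM in glucose, or 9.30-fold, and also holds 1 match. RTC3 had 1306 FPKM and 83.1 FPKM in glucose, and CIN5, for a stress transcription factor, had 259.6 FPKM and 27.4 FPKM in glucose. MIG2, which was lower, holds 1 match as well, and HXT3, which was within 2-fold, holds 2. These genes were picked after their values were seen, and binding was not measured here.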
